A study of Mus musculus with 8 samples.

Results

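The Wnt genes described here are 16 Wnt ligands, 12 Frizzled and Lrp receptors, 3 secreted inhibitors (Sfrp1, Sfrp2 and Dkk1) and 3 target genes (Axin2, Lef1 and Tcf7), 34 genes in all. They were chosen by name, and a probe was assigned to a gene where the accession printed beside it on the array is a RefSeq transcript of that gene. Of the 34 genes, 28 had a probe, 1 each, among the 34967 gene probes of the array: 13 ligands, 10 receptors, all 3 inhibitors and 2 targets. Wnt5a, Wnt6, Wnt7b, Fzd5, Fzd9 and Axin2 matched no probe and are not analysed here. In a further 2 ligands the probe was above background on few arrays, 1 of 8 for Wnt11 and 2 of 8 for Wnt16, and they were not tested. The other 26 genes passed the filter, for which a probe had to be above background in every embryo of 1 genotype or more.

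The study asked how the RNA-binding protein Ott1, now named Rbm15, controls gene expression in the mouse embryo. Whole mid-gestation embryos (E11.5) from matings of mice with a low-expression Ott1 allele were genotyped, and RNA of each embryo was read on its own one-colour CodeLink array, an oligonucleotide array with 1 fluorescent read-out per spot. There were 2 wild type embryos (numbers 11 and 13), 3 heterozygous embryos (3, 10 and 15) and 3 homozygous embryos (2, 7 and 16). Replicates are thus separate embryos, not repeat arrays of 1 embryo. The labels call the carriers Ott1 knockdown; neither the strain, the litters nor the way the allele lowers expression is stated in the sources used here. No probe was matched to Rbm15 itself, so its level was not analysed here and the genotype labels were not checked against it. The array of homozygous embryo 16 stood apart from the rest: 1634 of its gene probes were left out as marked by the scanner software (206 to 616 on the others), 26619 were above background (22526 to 23721 on the others) and its median intensity was 87.93 (48.28 to 61.52 on the others). Values without that embryo are given below for some of the genes where it carries a difference. A whole embryo mixes all tissues, and in such bulk RNA fewer cells of a type and less RNA per cell cannot be told apart.

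Wnt ligands are secreted, lipid-modified proteins that bind a Frizzled receptor together with the co-receptor Lrp5 or Lrp6. In the canonical branch this stabilises beta-catenin, which enters the nucleus and drives target genes with the DNA-binding proteins Tcf7, Lef1 and their relatives; Sfrp proteins bind the ligands and Dkk1 blocks the Lrp co-receptors. In the mid-gestation embryo Wnt signals pattern the neural tube, extend the body axis and shape the limbs, kidney and gonads.

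No Wnt ligand, receptor, inhibitor or target passed the threshold of an adjusted p of 0.05 in any of the 4 comparisons between genotypes. Levels below are log2 of the quantile-normalized intensity, so a difference of 1 is a doubling, and p-values are from limma, adjusted over all tested probes by the Benjamini-Hochberg method. Of all tested probes, 0.107% passed in homozygous against the 5 other embryos, 0.0342% in homozygous against wild type, 0.0% in heterozygous against wild type and 0.0214% in homozygous against heterozygous; with so few probes past the threshold, 0 of 26 Wnt genes is close to what all probes gave. The lowest adjusted p of a Wnt gene was 0.171, for Wnt4 in homozygous against the other embryos. The 4 comparisons share arrays and are not independent of each other.

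**Figure D1:**
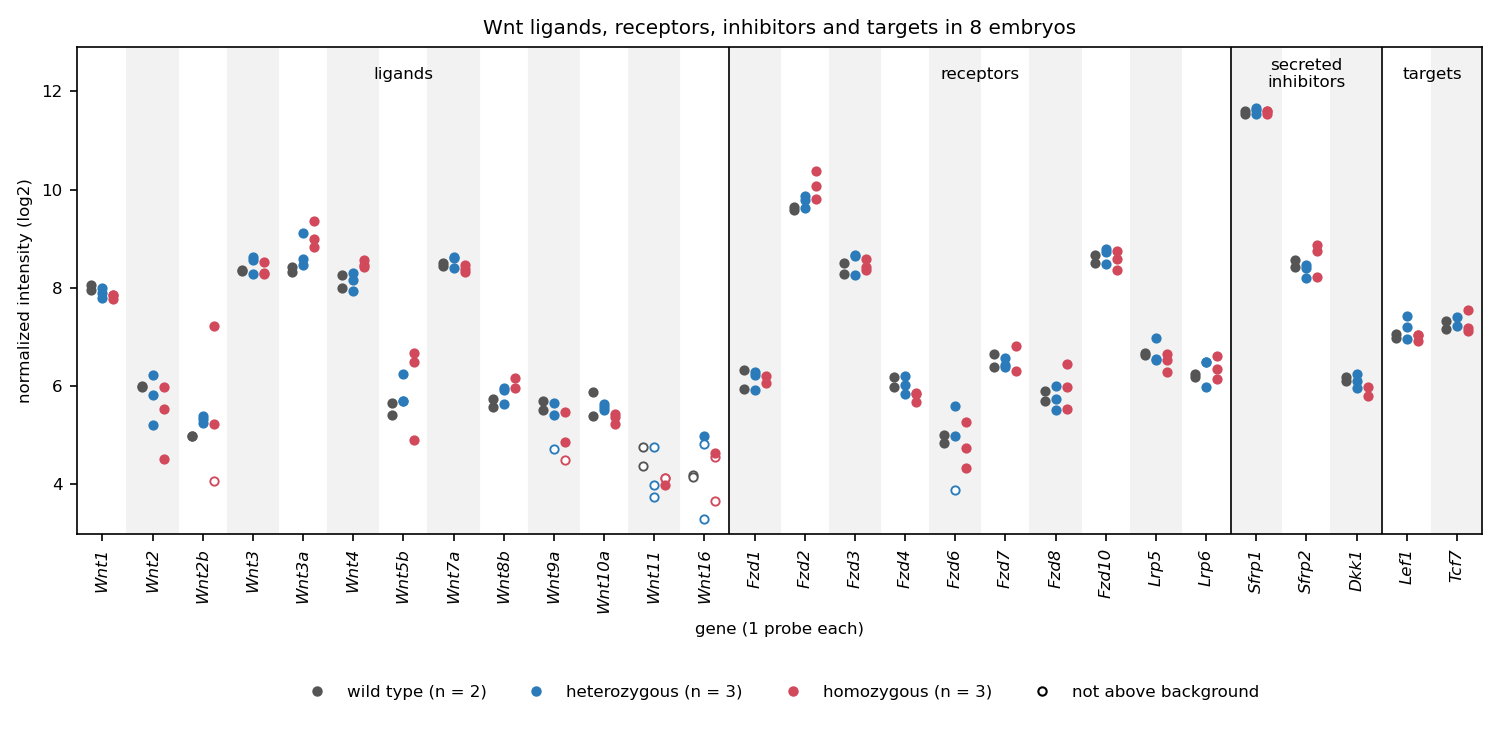
Log2 normalized intensity (y axis) of the 28 Wnt genes with a probe (x axis, 1 probe each, by class) in 2 wild type, 3 heterozygous and 3 homozygous embryos; each point is 1 embryo and an open point was not above background. The homozygous values overlap the others for every tested gene but Wnt4, and homozygous embryo 16 is far above the others for Wnt2b and lowest for Wnt2 and Wnt5b. Heights of different genes are read from different probes and are not comparable.

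Before the values, the stretch just upstream of the transcript start is shown for 3 members. Wnt4 is shown as the gene whose homozygous values did not overlap the others, Wnt3a as the gene with the largest positive difference, and Dkk1 because it is a known target of the pathway that it blocks. Each line gives 250 bases before the start on the gene's own strand, 5′ to 3′, from RefSeq on GRCm38.p6: chr4:137277385-137277634 (plus strand) for Wnt4, chr11:59290752-59291001 (minus strand) for Wnt3a and chr19:30549497-30549746 (minus strand) for Dkk1. Capitals mark letters of the kind that Tcf7 and Lef1 bind, searched on both strands: CTTTGAA as the first form, CTTTGAT as the second, CTTTGTA as the third and CTTTGTT as the last.
Wnt4: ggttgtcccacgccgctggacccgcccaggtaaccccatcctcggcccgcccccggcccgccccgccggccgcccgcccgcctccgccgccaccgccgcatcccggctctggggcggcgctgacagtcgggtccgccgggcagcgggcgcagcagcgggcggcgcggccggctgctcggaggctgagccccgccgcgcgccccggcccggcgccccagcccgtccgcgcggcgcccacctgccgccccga
Wnt3a: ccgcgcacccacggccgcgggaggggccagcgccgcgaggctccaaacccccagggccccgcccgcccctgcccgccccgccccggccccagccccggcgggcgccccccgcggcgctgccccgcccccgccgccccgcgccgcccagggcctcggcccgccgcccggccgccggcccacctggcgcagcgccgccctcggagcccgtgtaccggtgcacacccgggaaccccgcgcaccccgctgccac
Dkk1: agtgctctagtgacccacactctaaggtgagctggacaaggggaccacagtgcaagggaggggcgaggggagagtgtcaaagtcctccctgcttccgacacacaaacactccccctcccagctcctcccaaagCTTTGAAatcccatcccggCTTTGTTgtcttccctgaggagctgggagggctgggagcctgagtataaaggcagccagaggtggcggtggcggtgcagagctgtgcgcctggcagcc
The Wnt4 and Wnt3a windows hold none of these letters. The Dkk1 window holds 2 matches, which begin 117 and 98 bases before the start, and 1.43% of all 32851 promoter windows in the RefSeq table hold 2 or more. A window was found for 24 of the 34 genes, 31 windows in all since some genes have several starts. Of these, 5 windows (16.1%) hold a match, in Fzd7, Lef1, Wnt5b, Wnt11 and Dkk1, against 14.8% of all windows. A match is a description of the letters only.

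Among the 11 tested ligands, 5 had a positive and 6 a negative difference in homozygous against the other embryos, with a median of -0.06, equal to the median of all tested probes (-0.06). Wnt4, on chromosome 4, directs kidney tubule formation and the early female gonad. It read 7.99 and 8.26 in wild type embryos 11 and 13, 8.31, 8.15 and 7.93 in heterozygous embryos 3, 10 and 15, and 8.47, 8.43 and 8.57 in homozygous embryos 2, 7 and 16. All 3 homozygous values lay above the 5 others, and the lowest homozygous value stood above heterozygous embryo 3, the highest of the rest. The mean was 8.49 ± 0.07 (SD, n = 3) against 8.13 ± 0.17 (SD, n = 5), a difference of 0.36 with a standard error of 0.11 and a 95% interval of 0.11 to 0.62, or 1.29-fold (limma, unadjusted p = 0.0111, adjusted p = 0.171). Of all tested probes 4.96% had every homozygous value above every other and 9.69% had every one below, so 1 of 26 Wnt genes above and 0 below is no more than all probes gave. The kidney and gonad markers that could accompany Wnt4 (4 of 6 summed, Wt1, Ret, Lhx1 and Osr1) had a summed linear intensity of 425 to 491 in wild type, 361 to 402 in heterozygous and 354 to 436 in homozygous embryos. Osr1 was the brightest of the 4 (7.83 to 8.44 in log2), and Wt1 was above background on 5 of 8 arrays. Ret read 5.60, 5.89 and 6.74 in homozygous embryos 2, 7 and 16.

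Wnt3a, on chromosome 11, is needed for the growth of the tail end of the body axis and is expressed in the dorsal neural tube. It read 8.42 and 8.33 in the wild type embryos 11 and 13, 8.58, 9.12 and 8.47 in heterozygous embryos 3, 10 and 15, and for homozygous embryos 2, 7 and 16 it read 8.99, 8.84 and 9.35. Both wild type embryos were lowest and embryo 16 highest, but heterozygous embryo 10 lay above homozygous embryos 2 and 7, so the groups overlap. Homozygous minus other embryos, the mean difference was 0.48 with a standard error of 0.19 and a 95% interval of 0.04 to 0.92, or 1.39-fold (limma, unadjusted p = 0.0371, adjusted p = 0.226). Without homozygous embryo 16 it was 0.33 and without heterozygous embryo 10 it was 0.61. The same 2 embryos, the highest for Wnt3a, had the lowest summed linear intensity of the 6 neuron markers (Tubb3, Elavl3, Dcx, Stmn2, Neurod1 and Isl1). The sum was 2921 in embryo 10 and 3123 in embryo 16 against 3818 to 5766 in the rest, and all 6 markers were above background on all arrays. Not every marker followed the sum. For Neurod1 embryo 10 read 8.77, above the 8.45 of homozygous embryo 7, and for Isl1 it read 9.94, above the 9.92 of homozygous embryo 2. The 5 dorsal neural tube and roof plate markers (Lmx1a, Msx1, Pax3, Zic1 and Atoh1) summed to 5570 to 6184 in wild type, 4620 to 6712 in heterozygous and 5742 to 5860 in homozygous embryos. That sum hides the roof plate marker Lmx1a, which read 6.78, 6.90 and 6.94 in homozygous embryos 2, 7 and 16, below the 7.27 to 7.63 of the others, a difference of -0.61 (-0.89 to -0.34; limma, unadjusted p = 0.000729, adjusted p = 0.109); it is the only one of the 5 with an unadjusted p under 0.05. Embryos 10 and 16 were also lowest for the 6 neural progenitor markers (sums of 5610 and 5000). They were highest for the 6 surface ectoderm markers (4739 and 5062) and the 4 skeletal muscle markers (9926 and 11181). The targets T, Cdx1, Cdx2 and Tbx6, named after their values were seen, were highest in embryo 10 (8.30, 8.46, 6.83 and 5.94). In embryo 16 they read 7.77, 7.99, 5.77 and 4.93, below homozygous embryo 7. The part of these cell types in the Wnt3a values was not tested.

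Wnt8b, a ligand of the developing forebrain on chromosome 19, read 5.74 and 5.57 in wild type embryos, 5.92, 5.97 and 5.63 in heterozygous embryos 3, 10 and 15, and 6.16 and 5.97 in homozygous embryos 2 and 7. The spot of embryo 16 was marked by the scanner software and left out of the fit. Homozygous embryo 2 was highest, and embryo 7 was level with heterozygous embryo 10. The difference was 0.30 (standard error 0.14, 95% interval -0.04 to 0.63; limma, unadjusted p = 0.0735, adjusted p = 0.289).

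Wnt10a, on chromosome 1 and known for its part in teeth, hair and other skin appendages, read 5.89 and 5.39 in wild type, 5.57, 5.64 and 5.51 in heterozygous and 5.44, 5.37 and 5.24 in homozygous embryos 2, 7 and 16. The homozygous embryos lay at the low end but overlapped wild type embryo 13. The difference was -0.25 with a 95% interval of -0.53 to 0.03 (limma, unadjusted p = 0.0747, adjusted p = 0.29). The 6 surface ectoderm markers (Krt5, Krt8, Krt18, Trp63, Epcam and Krt14) summed to 3269 to 3886 in wild type, 3420 to 4739 in heterozygous and 3914 to 5062 in homozygous embryos. Its members differed in sign: the epidermal keratins Krt5 and Krt14 differed by -0.89 (-1.66 to -0.12; limma, unadjusted p = 0.0281, adjusted p = 0.208) and -0.38 (-0.92 to 0.16), while Krt8 and Krt18 differed by 0.44 (-0.11 to 0.99) and 0.50 (-0.05 to 1.04). The part of these cells in the Wnt10a values was not tested.

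The other tested ligands fell into a precise and an imprecise set. Wnt1, Wnt3 and Wnt7a, which act in the midbrain and dorsal neural tube, the early axis and the dorsal limb, spanned 0.28, 0.34 and 0.29 over the 8 embryos and differed by -0.11, -0.06 and -0.12. Their 95% intervals ran from -0.31 to 0.09, from -0.32 to 0.20 and from -0.33 to 0.08. Wnt2, Wnt2b, Wnt5b and Wnt9a spread over 1.71, 3.16, 1.78 and 1.21, so that each of their intervals reached a doubling or a halving. Wnt2b, a relative of Wnt2 with which it acts in lung formation, read 5.23 in homozygous embryo 2, 4.08 (not above background) in embryo 7 and 7.23 in embryo 16, while the others ranged from 4.99 to 5.40. The sign rests on embryo 16, since the difference of 0.32 became -0.54 without it. Wnt2 read 4.51 in embryo 16 and 5.21 to 6.22 in the other embryos, and differed by -0.50 (-1.27 to 0.26), but by -0.085 without embryo 16. Wnt5b read 4.90 in embryo 16, the lowest of all embryos, and 6.68 and 6.49 in homozygous embryos 2 and 7, the highest. Wnt9a, which takes part in joint formation, differed by -0.47 (-1.09 to 0.15), from -0.24 without homozygous embryo 2 to -0.73 without embryo 7. Wnt11 and Wnt16, the ligands left untested, ranged from 3.74 to 4.76 and from 3.30 to 4.98 over the 8 embryos, mostly not above background.

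Of the 10 tested receptors, 4 had a positive and 6 a negative difference, with a median of -0.01. Fzd2, on chromosome 11, is a Frizzled receptor expressed in embryonic mesenchyme. Its values were 9.64 and 9.59 in wild type, 9.78, 9.87 and 9.63 in heterozygous and 10.37, 9.81 and 10.08 in homozygous embryos 2, 7 and 16. Homozygous embryos 2 and 16 were the highest of all, while embryo 7 lay below heterozygous embryo 10. The mean was 10.08 ± 0.28 (SD, n = 3) against 9.70 ± 0.12 (SD, n = 5), a difference of 0.38 with a 95% interval of 0.07 to 0.69, or 1.30-fold (limma, unadjusted p = 0.0209, adjusted p = 0.192). Leaving out homozygous embryo 2 gave 0.24 and leaving out embryo 7 gave 0.52. The 4 cartilage and mesenchyme markers (Col2a1, Twist1, Pdgfra and Col1a1) summed to 4646 to 5090 in wild type, 4252 to 5286 in heterozygous and 5057 to 5526 in homozygous embryos; their part in the Fzd2 values was not tested.

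Fzd4, the receptor of the Norrin ligand in blood vessels, read 6.18 and 5.98 in wild type, 5.84, 6.21 and 6.03 in heterozygous and 5.84, 5.87 and 5.67 in homozygous embryos 2, 7 and 16. The homozygous values were at the low end, with heterozygous embryo 3 among them. The difference was -0.25 with a 95% interval of -0.51 to 0.00 (limma, unadjusted p = 0.0525, adjusted p = 0.255). The co-receptor Lrp5 read 6.67 and 6.64 in wild type, 6.55, 6.98 and 6.53 in heterozygous and 6.53, 6.66 and 6.29 in homozygous embryos. Its difference was -0.18 (-0.48 to 0.12), and that of its partner Lrp6 was 0.08 (-0.26 to 0.43). The ranges of the genotypes overlap for both co-receptors; Lrp5 was highest in heterozygous embryo 10 and lowest in homozygous embryo 16, and Lrp6 was highest in homozygous embryo 7 (6.61).

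Fzd8 spread widely among the homozygous embryos, with 6.46, 5.98 and 5.53 for embryos 2, 7 and 16, the others ranging from 5.52 to 6.01, a difference of 0.21 (-0.25 to 0.67). Fzd1, Fzd3, Fzd7 and Fzd10 differed by -0.01, -0.01, 0.07 and -0.07, each with a 95% interval inside 1.5-fold either way. Fzd3 and Fzd6 also serve axon guidance and planar polarity, the shared orientation of cells in a sheet. Fzd6 was not above background in heterozygous embryo 15 and differed by -0.07 (-0.88 to 0.74).

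The 3 secreted inhibitors showed 1 positive and 2 negative differences. Sfrp1 had the smallest span of the 26 genes, 0.12 over all embryos with quantile normalization. It read 11.59 and 11.53 in wild type, 11.62, 11.53 and 11.65 in heterozygous and 11.60, 11.53 and 11.59 in homozygous embryos, a difference of -0.01 (-0.19 to 0.17). Under median scaling, however, the same gene gave -0.36 (limma, unadjusted p = 0.0434, adjusted p = 0.204). The median of all probes was -0.22 with that scaling, and relative to it Sfrp1 was -0.14. Sfrp2 read 8.57 and 8.42 in wild type, 8.47, 8.40 and 8.20 in heterozygous and 8.88, 8.74 and 8.22 in homozygous embryos 2, 7 and 16. Embryos 2 and 7 lay above all others, but embryo 16 was next to the lowest, and the difference was 0.20 (-0.15 to 0.56). Dkk1, whose upstream stretch is printed above, read 6.11 and 6.19 in wild type, 6.25, 6.10 and 5.96 in heterozygous and 5.98 and 5.81 in homozygous embryos 2 and 16, the spot of embryo 7 being marked and left out. Homozygous embryo 16 was lowest, embryo 2 lay just above heterozygous embryo 15, and the difference was -0.23 (-0.50 to 0.04; limma, unadjusted p = 0.0896, adjusted p = 0.311).

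The 2 measured targets, Lef1 and Tcf7, are beta-catenin partners whose own transcription responds to Wnt signals. Lef1 read 7.06 and 6.98 in wild type, 6.95, 7.42 and 7.20 in heterozygous and 7.04, 7.05 and 6.92 in homozygous embryos, a difference of -0.12 (-0.40 to 0.16). Tcf7 read 7.32 and 7.17 in wild type, 7.41 and 7.23 in heterozygous embryos 3 and 15, and 7.12, 7.55 and 7.19 in homozygous embryos, with the marked spot of heterozygous embryo 10 left out. Its difference was 0.00 (-0.30 to 0.31). The ranges of homozygous and other embryos overlap for both genes; Lef1 was highest in heterozygous embryos 10 and 15, and Tcf7 was highest in homozygous embryo 7.

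**Figure D2:**
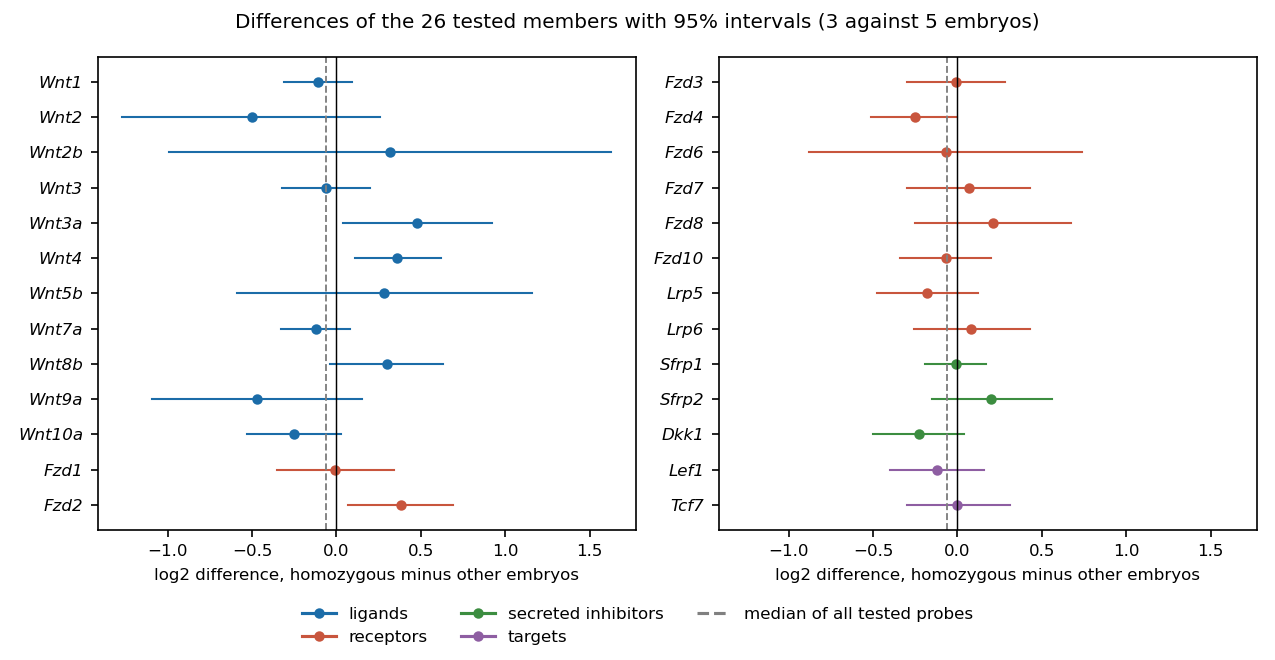
Log2 difference, homozygous minus the 5 other embryos (x axis), of the 26 tested Wnt genes (y axis, coloured by class); points are limma estimates, bars 95% intervals (3 against 5 embryos), the solid line is 0 and the dashed line the median of all tested probes (-0.06). The intervals of Wnt3a, Wnt4 and Fzd2 lie above 0, and those of Wnt2, Wnt2b, Wnt5b and Wnt9a are wide enough to reach a doubling or a halving.

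By the unadjusted p under 0.05, 3 of 26 Wnt genes were higher in homozygous than in the other embryos, Wnt3a, Wnt4 and Fzd2, where 6.63% of all tested probes were; 0 were lower, where 13.4% of all probes were. Over the 26 genes 11 differences were positive and 15 negative with a median of -0.01, beside a median of -0.06 over all probes, of which 39.8% were positive. The intervals of 22 genes lay within a doubling and a halving, and those of 16 within 1.5-fold either way. A p above the threshold does not show that these genes were alike in the genotypes; the intervals give the sizes that the 8 embryos leave possible.

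The scale of these differences depends on the normalization. Median scaling moved the median of all probes from -0.06 to -0.22 and the deposited value table moved it to -0.25, while cyclic loess gave -0.01. Relative to those medians, Wnt3a was 0.54 higher in homozygous embryos with quantile normalization, 0.46 with median scaling, 0.49 with cyclic loess and 0.45 in the deposited table. Wnt4 was 0.43, 0.38, 0.39 and 0.38 above the median of all probes in the same order, and Fzd2 was 0.44, 0.33, 0.41 and 0.33 above it. As plain differences from 0, without that shift, Wnt3a, Wnt4 and Fzd2 had unadjusted limma p-values of 0.251, 0.354 and 0.562 with median scaling and 0.328, 0.483 and 0.689 in the deposited table. Before normalization the median intensity was 61.45 to 87.93 on the 3 homozygous arrays and 48.28 to 57.63 on the 5 others, so the brightness of the array and the homozygous genotype cannot be told apart.

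Against wild type alone, 4 of 26 Wnt genes (15.4%) had an unadjusted p under 0.05 in homozygous embryos, all of them higher. In either direction 15.3% of all probes had one. The share of all probes that were higher is not given here for this comparison. Wnt3a differed by 0.69 (0.16 to 1.21), Fzd2 by 0.47 (0.06 to 0.87), Wnt8b by 0.41 (0.01 to 0.82) and Wnt4 by 0.37 (0.01 to 0.72), with adjusted limma p-values of 0.259, 0.288, 0.321 and 0.316. Against heterozygous embryos alone 1 gene (3.85%) had one, Wnt4, with a difference of 0.36 (0.05 to 0.68; limma, adjusted p = 0.409), where 11.6% of all probes had one.

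Heterozygous embryos were set against wild type to see whether 1 copy of the allele went with a difference. Of the 26 Wnt genes 0 had an unadjusted p under 0.05, where 2.3% of all probes had one (538 probes; none passed limma's adjusted threshold). Differences ran from -0.33 for Wnt9a to 0.35 for Wnt3a and Wnt5b, with 16 positive and 10 negative and a median of 0.04 beside -0.01 over all probes. For Wnt3a the heterozygous mean of 8.72 ± 0.35 (SD, n = 3) lay between 8.37 ± 0.06 (SD, n = 2) in wild type and 9.06 ± 0.26 (SD, n = 3) in homozygous embryos, but heterozygous embryo 10 alone was above 9. Wnt4 had the same mean, 8.13, in wild type and heterozygous embryos, with a difference of 0.00 (-0.35 to 0.36). The interval of Sfrp1 in this comparison was -0.21 to 0.29 and that of Fzd2 was -0.26 to 0.55.

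**Figure D3:**
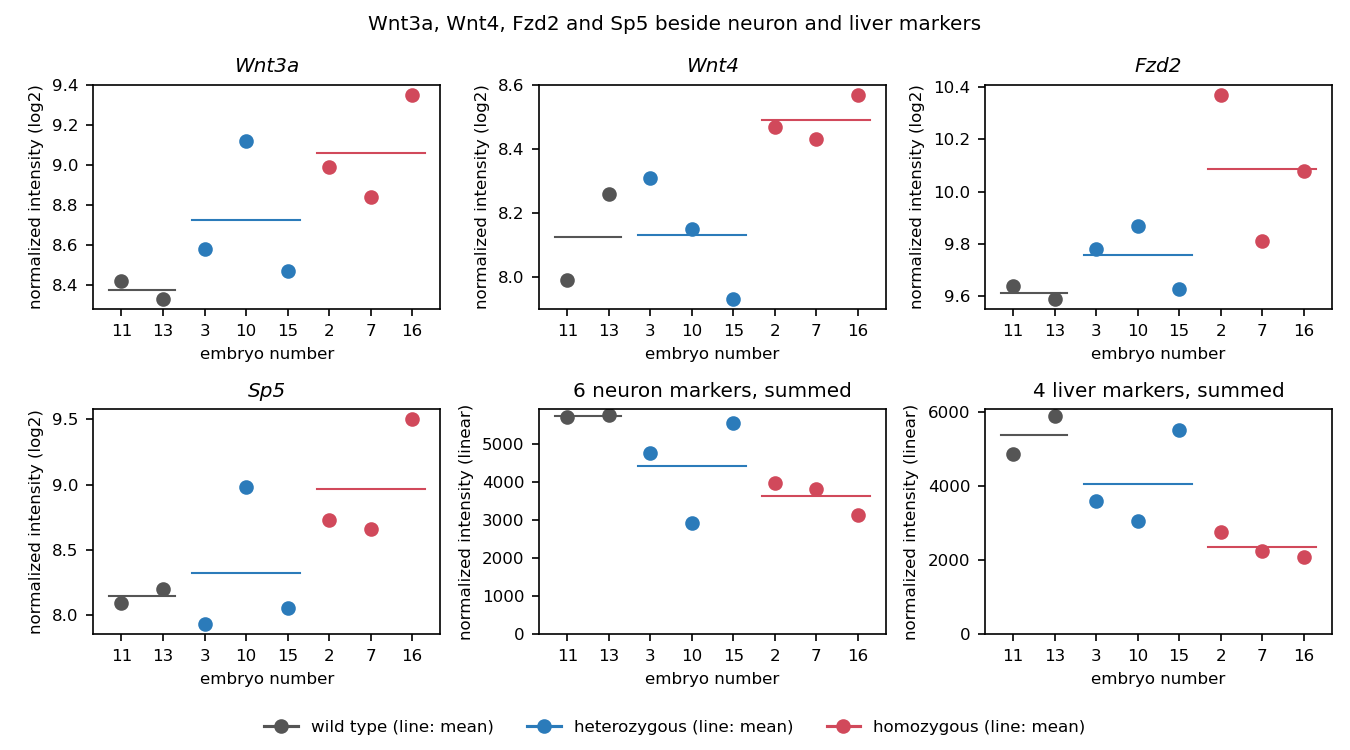
Values by embryo (x axis, embryo number, grouped by genotype) of Wnt3a, Wnt4, Fzd2 and Sp5 as log2 normalized intensity and of 6 neuron and 4 liver markers as summed linear intensity (y axes); points are single embryos and lines are genotype means. Embryos 10 and 16 are high for Wnt3a and Sp5 and lowest for the neuron sum (2921 and 3123). Wnt4 does not overlap between homozygous and other embryos, and the liver sum is 2065 to 2749 in homozygous embryos.

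A list of 73 other genes of the pathway, from ligand secretion to nuclear partners and further targets, had 60 genes with a usable probe, of which 53 were tested. A gene whose probe had no usable value on any array is not among the 60. None of the 53 passed the adjusted threshold in any comparison, and in homozygous against the other embryos 6 were higher and 6 lower at an unadjusted p under 0.05, 11.3% each, beside 6.63% and 13.4% of all probes. In 3 genes every homozygous value lay above every other and in 5 every one lay below, near the 4.96% and 9.69% of all probes. Those above were Csnk1d, Rspo1 and Frat1, and those below Lgr5, Wif1, Dvl3, Ctnnbip1 and Tle1; Frat1 is outside the rule for named genes and was named after its values were seen. The median difference was 0.01.

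At the cell surface, Lgr5, a receptor for the Wnt-enhancing Rspondins, read 6.34, 6.40 and 6.31 in homozygous embryos 2, 7 and 16 and 6.66 to 7.07 in the 5 others. The groups do not overlap, and the difference of -0.49 (-0.74 to -0.24) had the smallest p of all pathway genes tested in homozygous against the other embryos (limma, unadjusted p = 0.00184, adjusted p = 0.123). The Rspondin genes Rspo3 and Rspo1 differed by 0.27 (0.03 to 0.51) and 0.24 (-0.02 to 0.50); Rspo1 was negative with median scaling (-0.06) and with the deposited table (-0.09), yet 0.16 above the median of all probes in both. Wls, the carrier that brings Wnt proteins to the surface, differed by 0.34 (0.02 to 0.66). The adjusted limma p was 0.215 for Rspo3 and 0.236 for Wls. With median scaling Rspo3 gave 0.06 and Wls 0.09, and in the deposited table they gave 0.03 and 0.05. Relative to the median of all probes Rspo3 was 0.28 and Wls 0.30 higher in both. The ligands Wnt9b, which starts kidney tubule formation ahead of Wnt4, and Wnt8a differed by -0.35 (-0.67 to -0.03) and -0.46 (-0.89 to -0.03). Their adjusted limma p-values were 0.225 and 0.226. Wnt8a read 5.83 and 5.96 in homozygous embryos 2 and 7 and 5.19 in embryo 16. Its difference ranged from -0.62 to -0.23 over all fits, including those that leave out 1 embryo.

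Among the other inhibitors, Wif1, which binds Wnt ligands outside the cell, read 5.55, 5.77 and 5.47 in homozygous embryos 2, 7 and 16 and 5.85 to 6.60 in the others. These groups do not overlap either, and the difference was -0.68 (-1.05 to -0.30; limma, adjusted p = 0.135). Sfrp4, a further ligand-binding protein, was above background on 6 of 8 arrays and read 6.77, 4.90 and 7.94 in homozygous embryos 2, 7 and 16, the others ranging from 4.22 to 5.29. Embryo 7 lay among the other genotypes and embryos 2 and 16 far above them. The difference was 1.81 (0.45 to 3.16; limma, adjusted p = 0.181), without embryo 16 it was 1.10, and without embryo 7 it was 2.63 and passed the threshold (adjusted p = 0.0365).

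Inside the cell, Csnk1d, a casein kinase that phosphorylates pathway proteins, read 8.76, 8.60 and 8.75 in homozygous embryos and 7.35 to 8.32 in the others, a difference of 0.75 (0.30 to 1.20; limma, adjusted p = 0.141). Ctnnbip1, which keeps beta-catenin from its nuclear partners, read 6.95, 7.04 and 6.10 in homozygous embryos 2, 7 and 16 and 7.42 to 7.71 in the 4 others that had a usable spot. The groups do not overlap in either gene; the Ctnnbip1 difference was -0.83 (-1.36 to -0.30; limma, adjusted p = 0.155). Dvl3, a relay between Frizzled and beta-catenin, differed by -0.39 (-0.68 to -0.11; limma, adjusted p = 0.178).

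Of the 13 further targets tested, Myc and Sp5 were the only ones with an unadjusted p under 0.05. Sp5, a transcription factor switched on directly by Wnt signals in the tail and brain, read 8.73, 8.66 and 9.50 in homozygous embryos 2, 7 and 16, 8.09 and 8.20 in wild type and 7.93, 8.98 and 8.05 in heterozygous embryos 3, 10 and 15. As for Wnt3a, embryo 16 was highest and heterozygous embryo 10 lay above homozygous embryos 2 and 7. The difference was 0.71 (0.09 to 1.34; limma, adjusted p = 0.212), and 0.44 without embryo 16. Myc differed by 0.44 (0.09 to 0.80; limma, adjusted p = 0.187). With median scaling Myc gave 0.20 and Sp5 0.48, and in the deposited table they gave 0.16 and 0.44. Relative to the median of all probes Myc was 0.41 and Sp5 0.70 higher in both.

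**Figure D4:**
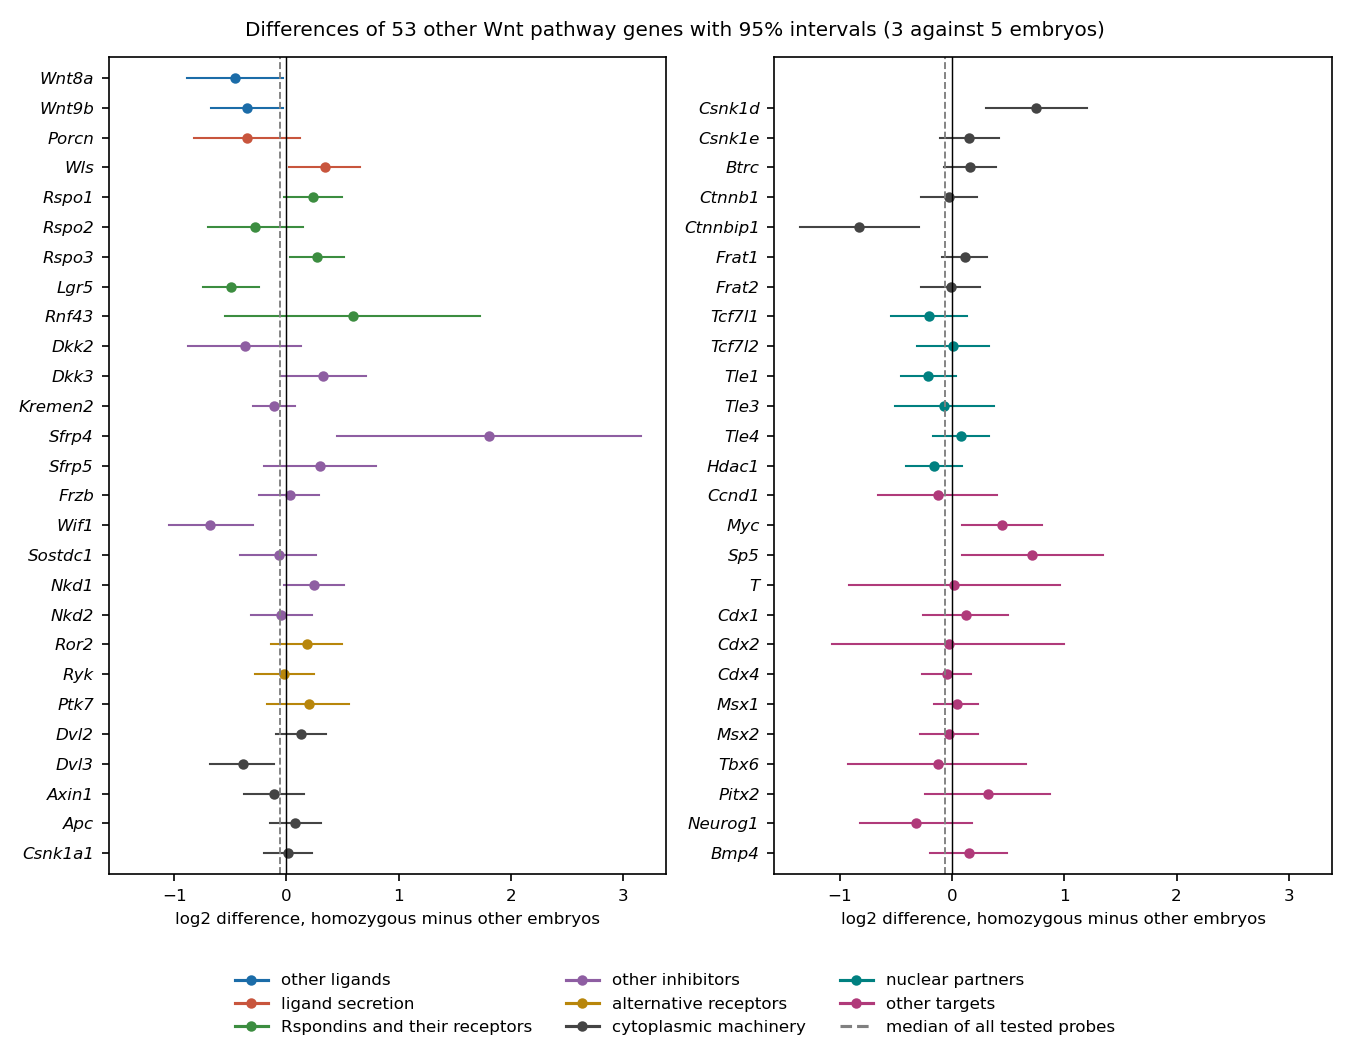
Log2 difference, homozygous minus the 5 other embryos (x axis), of 53 other Wnt pathway genes (y axis, coloured by sublist); points are limma estimates, bars 95% intervals (3 against 5 embryos), the solid line is 0 and the dashed line the median of all tested probes (-0.06). Sfrp4 has the largest estimate (1.81) and one of the widest intervals. The intervals of 6 genes lie below 0 (Lgr5, Wif1, Ctnnbip1, Dvl3, Wnt8a and Wnt9b). Those of 6 lie above it (Csnk1d, Sfrp4, Sp5, Myc, Rspo3 and Wls).

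Tissue markers of the same embryos were read beside these values. Of 65 tissue markers with a usable probe, 54 were above background on all arrays and 2 (Myh6 and Amn) on none. The 54 include markers of neuron, muscle, blood and liver, as a whole embryo should hold. They also include Gcm1, Hand1, Ascl2, Sox17 and Rhox5, listed as markers of trophoblast, decidua or visceral endoderm, outside the embryo. Prl8a2, from those lists, was above background on 7 of 8 arrays and read 4.30 in heterozygous embryo 3 and 7.85 in homozygous embryo 7. Rhox5 read 5.70 to 6.17 in homozygous embryos and 6.34 to 7.16 in the others, and Sox17 read 7.75 to 8.43 and 7.43 to 7.92. Both had an unadjusted limma p under 0.05, Rhox5 lower and Sox17 higher, where 13.4% and 6.63% of all tested probes did. The presence of tissue from outside the embryo was not tested. None of the tissue markers passed the adjusted threshold. All 4 summed liver markers (Afp, Alb, Ttr and Apoa1) had an unadjusted limma p under 0.05 and a negative difference, where 13.4% of all tested probes did. Hnf4a, also listed for liver, was above background on 1 of 8 arrays and was not tested. The 3 tested heart markers and the 4 tested cartilage and mesenchyme markers all had a positive difference, 0 of them with an unadjusted limma p under 0.05. The summed linear intensity of the 4 liver markers was 4861 to 5872 in wild type, 3044 to 5511 in heterozygous and 2065 to 2749 in homozygous embryos. The 6 neural progenitor markers summed to 8028 to 9225, 5610 to 8174 and 5000 to 6481 in the same order, but 2 had a positive and 4 a negative difference and 0 had an unadjusted limma p under 0.05. Fabp7, the brightest of those spots, differed by -0.49 (-1.09 to 0.10), while Sox2 and Pax6 differed by 0.06 and 0.04. The part of tissue make-up in the Wnt values was not tested.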

How the data were processed

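RNA of 8 whole embryos was read on one-colour CodeLink arrays with biotin-labelled cRNA, per the labels' protocols. The authors deposited 1 file per array. Its intensity column, per the file headers and a recomputation, is background-corrected: each spot's mean less the median of its local background. The deposited value table holds the same intensities divided by 1 factor per array. The scanner software is not given in the sources used here.

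Control spots and spots marked as contaminated, irregular or masked were left out (206 to 1634 of 34967 gene probes per array; 22526 to 26619 were above background). Intensities were quantile normalized in limma 3.58.1 (R 4.3.3), floored at the 5th percentile of positive values (4.496, or 2.17 on the log2 scale) and put on the log2 scale. A probe was kept if every embryo of 1 genotype or more had it above background (23389 probes). Models were fitted with lmFit and eBayes, two-sided, with Benjamini-Hochberg adjustment over all tested probes and a threshold of 0.05: 1 of 3 genotype means and 1 of homozygous against the 5 other embryos. The method was tested on simulated data. Precision is limited by having 2 or 3 arrays a genotype.

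Probes were named by RefSeq accession on GRCm38.p6; 14763 had 1 symbol. The members, the gene lists and the marker lists were chosen with earlier results of these data known. Any member could be named; values per embryo were given for up to 4 members per class with the smallest p and for those without overlap. Of the wider list up to 3 genes per sublist with the smallest p were named. For genes with several probes the brightest stood for the gene. Alternatives were other scalings, normexp with an offset of 50, other floors and filters, marked spots kept, fits of the compared groups alone, and leaving out each embryo in turn.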

Additional observations from a re-analysis of the deposited data

Results flagged for a closer look

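In 48 groups of the named genes, a single embryo's distance to its nearest neighbour was set against the range of its group (Dixon's criterion), which by chance singles out about 5% of groups; 2 were singled out. Wnt9a read 4.73 in heterozygous embryo 3, where it was not above background, the lowest of the 5 wild type and heterozygous embryos, with a gap of 0.719 of their range against a critical value of 0.71. Sp5 read 8.98 in heterozygous embryo 10, the highest of the 5, with a gap of 0.747 of their range. Embryo 10 was also the highest of those 5 for Wnt3a (9.12).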

How the results depend on the processing

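No Wnt gene passed the adjusted threshold under any of the 17 alternatives in any comparison, and the lowest adjusted p of a Wnt gene over all of them was 0.102 (limma). Of the 26 tested members 14 kept their sign in homozygous against the other embryos under every alternative and 12 did not. Wnt3a ranged from 0.20 to 0.61, Wnt4 from 0.13 to 0.41 and Fzd2 from 0.08 to 0.52. With 2 or 3 arrays per genotype and spots near background such as that of Wnt2b, signal over background limits what can be seen. A fit without 1 wild type embryo assumes that the other varies like the other groups. Array slide or scan as a block was not run, because no slide or scan held over 1 array, and fitting only the groups compared does not apply to homozygous against the others. No paired analysis was possible because the genotypes share no embryo number. Where not otherwise said, the cause of a shift was not tested.

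Signs turned as follows, in log2 difference of homozygous against the other embryos. With median scaling Fzd6 gave 0.044, Fzd7 -0.057, Sfrp2 -0.004, Tcf7 -0.12, Nkd1 -0.033 and Rspo1 -0.059. In the deposited value table Fzd6 gave 0.010, Fzd7 -0.087, Sfrp2 -0.038, Tcf7 -0.16, Nkd1 -0.067 and Rspo1 -0.093. Both settings lower the median of all probes, and relative to that median Fzd7 (0.16), Sfrp2 (0.21), Tcf7 (0.09), Nkd1 (0.18) and Rspo1 (0.16) were positive in both, as with quantile normalization. With cyclic loess Fzd1 gave 0.040, Fzd3 0.005, Fzd6 0.12 and Ryk 0.005, and with marked spots kept Fzd1 gave 0.042, Fzd7 -0.080 and Tcf7 -0.11. Leaving out 1 embryo at a time turned the sign of Wnt2b (-0.54 without embryo 16, up to 1.04 without embryo 7), Wnt5b (-0.045 without embryo 2, up to 0.84 without embryo 16), Fzd6 (-0.32 to 0.15), Fzd7 (-0.19 without embryo 16, up to 0.32) and Fzd8 (-0.026 without embryo 2, up to 0.44). It did so for values close to 0 in Fzd1 (-0.085 to 0.073), Fzd3 (-0.077 to 0.037), Fzd10 (-0.16 to 0.025), Lrp6 (-0.038 to 0.19), Sfrp1 (-0.025 to 0.011), Tcf7 (-0.13 to 0.085) and Ryk (-0.066 to 0.054).

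Over all probes, 25 passed in homozygous against the other embryos (7 higher, 18 lower), 42 with cyclic loess (20 higher, 22 lower), 45 in the deposited table (9 higher, 36 lower), 85 with normexp, 6 without a filter and 50 with probes above background on all arrays. Leaving out 1 embryo gave 5 (without wild type embryo 13 or heterozygous embryo 15) to 189 (without homozygous embryo 7), with 6 without embryo 11, 14 without embryo 3 and 44 without embryo 10. In homozygous against wild type 8 passed (2 higher, 6 lower), 27 with median scaling (9 higher, 18 lower), 20 with cyclic loess (11 higher, 9 lower), 27 in the deposited table (8 higher, 19 lower), 36 with normexp, 5 with a floor at the 1st percentile, 4 without a filter, 5 with marked spots kept, 0 with only those groups (limma; 3042 at an unadjusted p under 0.05) and 0 to 16 with 1 embryo left out. In heterozygous against wild type 0 passed, 2 with median scaling, 1 with cyclic loess, 2 in the deposited table and 0 to 2 with 1 embryo left out. In homozygous against heterozygous 5 passed (0 higher), 10 with median scaling (3 higher), 9 with cyclic loess (3 higher), 12 in the deposited table (4 higher), 11 with normexp and 4 to 24 with 1 embryo left out. Sfrp4 passed only without homozygous embryo 7 (2.63, adjusted p = 0.0365).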

Other observations

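In heterozygous against wild type embryos 3 of the 53 other pathway genes (5.66%) had an unadjusted limma p under 0.05, all lower. Of all tested probes 2.3% had one, in either direction, and none passed the adjusted threshold. Of the 3 genes 2 are inhibitors and 1 belongs to the machinery inside the cell. The inhibitors, Dkk2 and Dkk3, are outside the rule for named genes and were chosen after their values were seen. Dkk2, a relative of Dkk1, read 6.59 and 6.88 in wild type, 6.16, 6.22 and 5.94 in heterozygous and 5.97, 6.25 and 5.73 in homozygous embryos, so that both wild type embryos lay above the other 6. Its difference was -0.63 in heterozygous and -0.75 in homozygous against wild type (limma, unadjusted p = 0.00979 and 0.00399, adjusted p = 1.0 and 0.215). Dkk3 read 7.14 and 7.28 in wild type, 6.75, 6.83 and 6.54 in heterozygous and 7.26, 7.22 and 7.23 in homozygous embryos, with the heterozygous embryos below both other genotypes. Its difference was -0.50 in heterozygous against wild type and 0.03 in homozygous against wild type (limma, adjusted p = 1.0 and 0.935). In homozygous against heterozygous it was 0.53 (0.27 to 0.79; limma, unadjusted p = 0.00177, adjusted p = 0.332). These comparisons share embryos.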
